A study of Sus scrofa with 6 samples.

Results

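DES, ACTN2 and FHL1 encode proteins of the Z-disc and of the filaments attached to it. They were followed in 6 boars, each 150 days old, in a back muscle, the longissimus dorsi. The probe sets were chosen by their gene symbol alone, which had to be exactly DES, ACTN2 or FHL1 in the platform annotation. This gave 3 of 6765 genes with a single symbol, and 5 of 24123 probe sets on the Affymetrix Porcine Genome Array, with a bright and a dim one for DES, a pair for ACTN2 and 1 for FHL1. The study compared 3 Northeastern Indigenous boars with 3 Large White boars, the control breed. All animals were kept under 1 feeding and housing regime per the labels, which name no treatment. Each animal gave 1 array, so the number of arrays limits the precision. Samples of a breed are biological replicates per the labels.

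The Z-disc is the protein lattice at the border of each sarcomere, the contractile unit of striated muscle. Actin filaments from neighbouring sarcomeres are anchored there by alpha-actinin, of which ACTN2 encodes the form of heart and skeletal muscle. Desmin, the product of DES, is the muscle intermediate filament; it ties Z-discs of adjacent myofibrils to each other, to the plasma membrane and to the nuclei. Desmin is cleaved by calpains after slaughter and is therefore often measured in meat. FHL1 encodes a protein built of LIM domains, zinc-binding modules for protein contacts; it is abundant in skeletal muscle, binds at the sarcomere and takes part in signalling there. Inherited defects of DES and FHL1 cause human muscle disease with protein aggregates in the fibres.

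The arrays were uneven in tissue markers. Muscle and adipocyte markers varied most within the Large White breed. Summed leukocyte and matrix markers were higher on every Large White array than on any Northeastern Indigenous one. Of 8 skeletal muscle markers, 5 were on the array by symbol (CKM, MYLPF, TNNT3, TNNC2 and MYH2). Their normalized log2 intensities were between 14.46 and 15.26 on every array except Large White replicate 1, where they were between 11.62 and 13.95. As deposited, Large White replicate 3 was low as well. The summed intensities were 38590, 237007 and 121219 on Large White replicates 1, 2 and 3, against 187631 to 202217 in Northeastern Indigenous boars. Adipocyte markers went the other way: 10 of 14 were on the array, and their summed deposited intensity was 42430, 10643 and 33257 on Large White replicates 1, 2 and 3, against 7103 to 13252 in Northeastern Indigenous boars. ADIPOQ, the fat-cell hormone, read 13.64, 7.22 and 12.50 on Large White replicates 1, 2 and 3. Summed leukocyte markers (13 of 19 on the array) ranged from 7145 to 21807 in Large White and from 1915 to 3978 in Northeastern Indigenous boars. For fibroblast and matrix markers (14 of 17) the ranges were 56049 to 111807 and 32154 to 50104. Endothelial, smooth muscle, blood and nerve marker lists had medians between -0.96 and 1.07 log2 units from the Northeastern Indigenous mean on the 3 Large White arrays. Summed smooth muscle markers were nonetheless lower on every Large White array, at 5727.8 to 7408.0 against 9467.7 to 10415.5 in Northeastern Indigenous boars. Summed nerve markers were higher on every Large White array, at 1696.5 to 2891.2 against 926.0 to 1617.5. Summed blood markers varied most within the Northeastern Indigenous breed, from 1995 to 13538, against 3946 to 9496 in Large White. No marker was listed at 0 on any array. Large White replicates 1 and 3 also read low for the 9 hybridization spikes, labelled RNAs added to each hybridization, at a median of -0.70 and -0.74 log2 units from the Northeastern Indigenous mean. On the other 4 arrays these spikes were between -0.15 and 0.11. Of 6 control pairs that compare the 3′ and 5′ ends of a message, 3 set the same 2 arrays apart. The 3′ to 5′ log2 ratio of the elongation factor was -0.04 and 0.08 on Large White replicates 1 and 3 and 0.31 to 0.52 on the other 4 arrays. For 1 actin pair it was 2.55 and 2.47 against 2.74 to 3.44, and for 1 GAPDH pair it was -0.17 and -0.12 against -0.49 to -0.22, the opposite direction. A further GAPDH pair and a further actin pair set Large White replicate 1 alone apart, at 0.41 against 0.60 to 0.75 and at 0.21 against -0.28 to -0.13. The part of these measures in the results on DES, ACTN2 and FHL1 was not tested. In whole muscle, fewer muscle cells and less RNA per cell cannot be told apart.

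DES and ACTN2 were bright on 4 of the 6 arrays, lower on Large White replicate 3 and far lower on Large White replicate 1. FHL1 was among the brightest probe sets on every array and varied little after quantile normalization. With all 6 arrays, none of the breed differences passed the adjusted threshold. Limma called 0 of the 4 probe sets tested for these genes, and 0% of all 14399 probe sets tested, at a Benjamini-Hochberg adjusted p under 0.05. At an unadjusted p under 0.05 it held 0 of the 4, against 18.8% of all probe sets (8.82% with Northeastern Indigenous boars higher, 9.97% with them lower). The fifth probe set, the dim one of DES, was under the intensity filter and was not tested.

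DES, on its bright probe set, read 7.26, 13.23 and 11.59 on Large White replicates 1, 2 and 3 in normalized log2 intensity. The Northeastern Indigenous arrays read 13.09, 12.91 and 13.63. Large White replicate 2 thus fell inside the range of the other breed, and replicates 1 and 3 below it. As deposited, before quantile normalization, the intensities of DES were 177, 11118 and 3020 on Large White replicates 1, 2 and 3, and 8374 to 13955 in Northeastern Indigenous boars. Relative to the Northeastern Indigenous mean, Large White replicate 1 stood at -5.95 log2 units, or 62.0-fold lower, and replicate 3 at -1.62, or 3.07-fold lower. On Large White replicate 1 the probe set was brighter than or equal to 56.9% of all probe sets of that array, against at least 97.8% on the Northeastern Indigenous arrays.

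The breed means of DES were 13.21 ± 0.38 in Northeastern Indigenous and 10.69 ± 3.09 in Large White boars (SD, n = 3 each). The difference of 2.52 ± 1.36 log2 units (SE; 95% interval -0.68 to 5.72) did not pass in limma (adjusted p = 0.325; unadjusted p = 0.106). An exact permutation test over the 20 splits of 6 arrays gave p = 0.3 (two-sided, n = 3 per breed), and 3 arrays against 3 cannot go below 0.1. The value rested on single Large White arrays. Without Large White replicate 1 it was 0.82. Without Large White replicate 2 it was 3.75 and passed (limma adjusted p = 0.043). That fit called 4425 probe sets in all, against 0 with all 6 arrays. It set the arrays with the highest adipocyte sums against the Northeastern Indigenous ones. Without Large White replicates 1 and 3 together the DES difference was -0.025. There the remaining Large White array was assumed to vary like the other breed. The size of the DES difference thus depended on these arrays, and no direction is read from -0.025.

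The dim probe set of DES gave a different picture. Its normalized log2 intensities were 4.07, 4.74 and 2.06 on Large White replicates 1, 2 and 3, and 4.60, 2.15 and 4.99 on the Northeastern Indigenous ones. As deposited it was between 3.08 and 32.9, under the array medians of 94.1 to 120.1. The breeds overlapped, and the arrays did not follow the order seen on the bright probe set. Which stretch of the transcript each probe set matches is not given in the sources used here. With the mean of both probe sets in place of the bright one, the DES difference was 1.41 (limma adjusted p = 0.364).

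Both probe sets of ACTN2 were lowest on Large White replicate 1, next lowest on Large White replicate 3 and highest on Northeastern Indigenous replicate 3. The brighter one read 8.30, 13.51 and 12.60 on Large White replicates 1, 2 and 3, and 13.74, 13.64 and 14.08 on the Northeastern Indigenous arrays. The breeds did not overlap there, although Large White replicate 2 lay at -0.31 from the Northeastern Indigenous mean; without overlap and higher in Northeastern Indigenous boars were 14.2% of all probe sets tested, and 25.1% in either direction. The dimmer one read 7.51, 12.33 and 10.78 in Large White, and 11.99, 12.45 and 12.73 in Northeastern Indigenous boars. On this probe set Large White replicate 2 lay within the Northeastern Indigenous range. On the brighter one, Large White replicate 1 stood at -5.52 log2 units from that mean, or 46.0-fold lower, and replicate 3 at -1.22, or 2.33-fold lower.

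The breed difference of ACTN2 was 2.35 ± 1.22 on the brighter probe set (SE; 95% interval -0.53 to 5.23; 13.82 ± 0.23 against 11.47 ± 2.78, SD, n = 3 each). It did not pass in limma (adjusted p = 0.315), and the exact permutation p was 0.1, the smallest possible with n = 3 per breed. The dimmer probe set differed by 2.19 ± 1.10 (SE; limma adjusted p = 0.305; exact permutation p = 0.2). Leaving out Large White replicate 1 brought the values to 0.80 and 0.86. Leaving out Large White replicate 2 brought them to 3.32 (adjusted p = 0.057) and 3.22 (adjusted p = 0.033), so that the dimmer probe set passed and the brighter did not. The fit without Large White replicate 2 called 4425 probe sets in all. Against Large White replicate 2 alone the ACTN2 differences were 0.33 and 0.07.

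FHL1 was bright throughout. Its normalized log2 intensities were 13.96, 14.60 and 14.62 on Large White replicates 1, 2 and 3, and 14.75, 14.75 and 15.21 on the Northeastern Indigenous arrays. All 3 Large White arrays were below all 3 Northeastern Indigenous ones, with 14.62 and 14.75 as the nearest arrays. The same held for 14.2% of all probe sets tested, and 25.1% had no overlap in either direction. As deposited, the breeds overlapped for FHL1. On each array FHL1 was at least as bright as 99.1% of the probe sets. For the brighter ACTN2 probe set that share was 69.6% on Large White replicate 1 and between 97.3% and 99.2% on the other arrays.

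**Figure D1:**
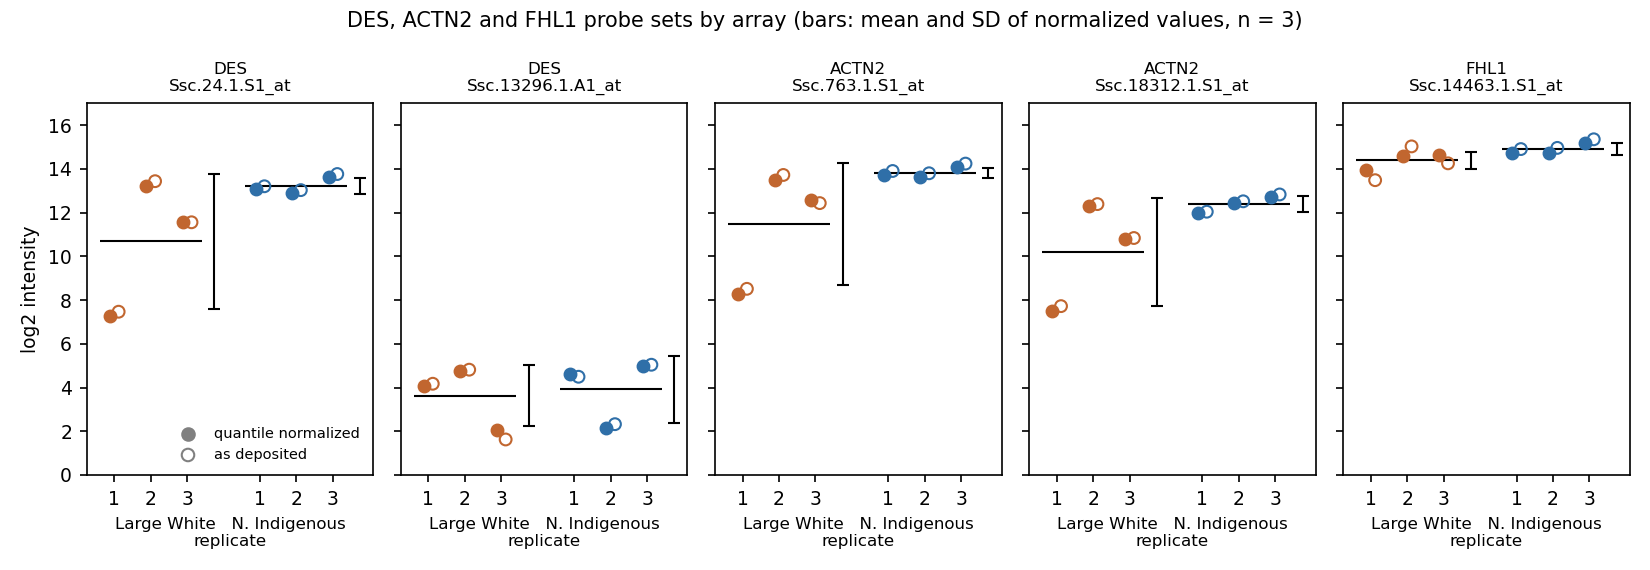
Log2 intensity (vertical axis) of the 5 probe sets on each array, grouped by breed along the horizontal axis. Filled points are quantile normalized, open points as deposited, and bars give the mean and SD of the 3 normalized values; DES and ACTN2 spread widely in Large White, with replicate 1 lowest on their bright probe sets, while FHL1 stays between 13.49 and 15.36 on both scales.

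The FHL1 difference was 0.51 ± 0.23 log2 units (SE; 95% interval -0.02 to 1.04; 14.90 ± 0.26 against 14.39 ± 0.38, SD, n = 3 each). It did not pass in limma (adjusted p = 0.272; unadjusted p = 0.058), and the exact permutation p was 0.1, the smallest possible. Without Large White replicate 1 it was 0.30. The scale mattered more for FHL1 than for DES and ACTN2. Quantile normalization gives probe sets of equal rank the same value on every array, and FHL1 ranked near the top on all of them. As deposited, FHL1 read 13.49, 15.03 and 14.26 in Large White and 14.91, 14.96 and 15.36 in Northeastern Indigenous boars. On that scale the difference was 0.82, Large White replicate 2 lay within the Northeastern Indigenous range, and replicates 1 and 3 lay at -1.59 and -0.82 from the mean of that breed. With arrays centred on their medians the difference was 0.96.

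**Figure D2:**
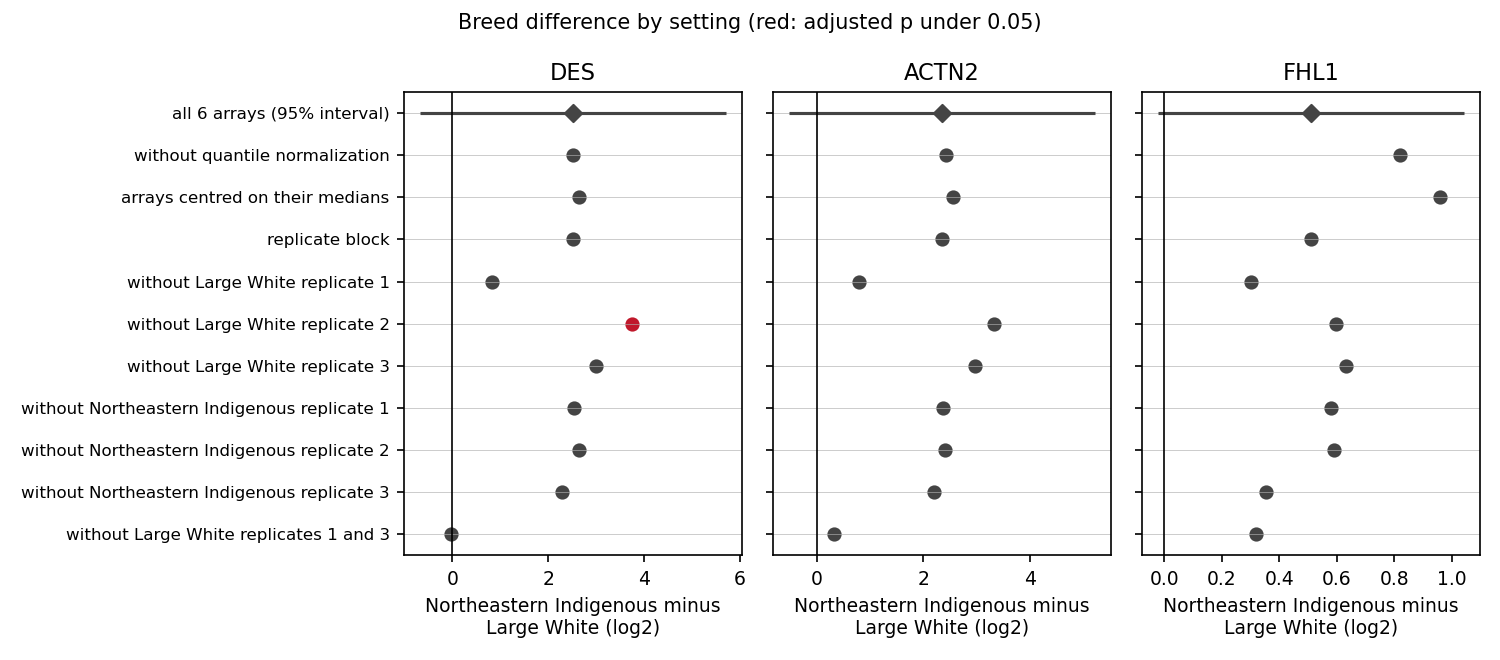
Northeastern Indigenous minus Large White difference in log2 intensity (horizontal axis) of DES, ACTN2 and FHL1 under different settings (vertical axis), with the 95% interval for all 6 arrays. DES moves from 0.82 without Large White replicate 1 to 3.75 without replicate 2, the single red point, and is at -0.025 without replicates 1 and 3; FHL1 stays between 0.30 and 0.96.

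The genes also differed in their spread within a breed. The SD of DES was 3.09 over the Large White arrays and 0.38 over the Northeastern Indigenous ones, and that of ACTN2 was 2.78 and 0.23. For FHL1 the SDs were 0.38 and 0.26. The Large White SD exceeded the Northeastern Indigenous SD in 71.7% of all probe sets tested, with medians of 0.49 and 0.27. DES and ACTN2 were at the 99.7th and 99.4th percentiles of the Large White SD over all probe sets tested, and FHL1 at the 37.3rd. These SDs are of normalized values, and normalization narrowed the spread of FHL1. In Large White, FHL1 ran from 13.96 to 14.62 as normalized and from 13.49 to 15.03 as deposited. DES ran from 7.47 to 13.44 as deposited.

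Within the Northeastern Indigenous breed the bright probe sets shared an order at the top. Replicate 3 was highest for DES (13.63), for both ACTN2 probe sets (14.08 and 12.73) and for FHL1 (15.21). Replicates 1 and 2 lay close together for DES (13.09 and 12.91), the brighter ACTN2 probe set (13.74 and 13.64) and FHL1 (14.75 each). On the dimmer ACTN2 probe set they read 11.99 and 12.45, further apart than replicates 2 and 3. The dimmer ACTN2 probe set had replicate 2 above replicate 1, and DES had the opposite order.

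Within arrays, the balance of the 3 genes was compared as the log2 ratio of their bright probe sets, read only as its change between arrays. Relative to the Northeastern Indigenous mean, the ratio of DES to ACTN2 was -0.43, 0.33 and -0.40 on Large White replicates 1, 2 and 3, and -0.04, -0.12 and 0.16 on the Northeastern Indigenous arrays. DES and ACTN2 thus moved nearly together, also on Large White replicate 1, where both were lowest. The ratio of DES to FHL1 was -5.01, 0.32 and -1.33 on the Large White arrays, and that of ACTN2 to FHL1 was -4.58, -0.01 and -0.94. The Northeastern Indigenous arrays held both ratios between -0.15 and 0.12. None of the 3 ratios passed an exact permutation test between breeds (two-sided, n = 3 per breed). The differences and exact p were 0.17 for DES to ACTN2 (p = 0.6), 2.01 for DES to FHL1 (p = 0.4) and 1.84 for ACTN2 to FHL1 (p = 0.3), each with an adjusted p of 0.6 over the 3 pairs.

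Other Z-disc genes were mostly low on Large White replicate 1 as well. Of 41 further genes listed for the Z-disc, 25 were on the array by symbol and 24 were kept by the filter. Of these, 20 differed upward, with brighter signal in Northeastern Indigenous boars, and 4 downward; the median difference was 1.24, against 0.10 and 55.8% higher over all probe sets tested. Limma called 0 of the 24 (smallest adjusted p = 0.224). At an unadjusted p under 0.05 there were 3, all higher in Northeastern Indigenous boars. Over all probe sets tested that share was 18.8%, with 8.82% higher. TCAP, which caps titin at the Z-disc, read 9.94, 14.16 and 13.88 on Large White replicates 1, 2 and 3, against 14.33 ± 0.16 (SD, n = 3) in Northeastern Indigenous boars. MYOT, which binds alpha-actinin, read 11.13, 14.24 and 14.05 against 14.40 ± 0.03, and MYOZ1, a calcineurin-binding Z-disc protein, read 11.57, 15.01 and 14.74 against 15.15 ± 0.10. TTN, the giant spring from Z-disc to M-band, read 11.39, 14.60 and 14.21 against 14.61 ± 0.26. NEB, which runs along the thin filament, followed with 11.45, 14.52 and 14.31 against 14.47 ± 0.18.

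Not every Z-disc gene had this pattern. On Large White replicate 1, 17 of the 24 lay more than 1 log2 unit below the Northeastern Indigenous mean, and 3 lay more than 1 above it. Of all 14399 probe sets tested, 2923 lay that far below and 2820 that far above. CAPZA2, a subunit of the actin capping protein found in most cell types, read 13.57, 13.84 and 13.91 on the Large White arrays against 13.97 ± 0.07 (SD, n = 3). The 3 genes with an unadjusted p under 0.05, named after their values were seen, were the small heat shock protein gene HSPB7, the ubiquitin ligase gene FBXO32 and the chaperone partner BAG3. HSPB7 differed by 2.45 ± 0.54 (SE), FBXO32 by 2.64 ± 0.77 and BAG3 by 0.93 ± 0.33, with limma adjusted p of 0.224, 0.224 and 0.237. On Large White replicate 2 they also read low, at -1.43, -1.37 and -0.43 from the Northeastern Indigenous mean, where DES was at 0.02.

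The relatives of the 3 genes took different courses. ACTN1, the alpha-actinin of non-muscle cells, read 10.78, 9.26 and 11.07 on Large White replicates 1, 2 and 3, against 9.47 ± 0.37 (SD, n = 3) in Northeastern Indigenous boars. It was high on the arrays where ACTN2 was low. Its difference of -0.90 ± 0.51 (SE) did not pass (limma adjusted p = 0.336). FHL3, another LIM-only gene of skeletal muscle, read 7.45, 12.51 and 10.94 on the Large White arrays against 12.44 ± 0.19, in the manner of DES rather than FHL1. FHL2, best known from the heart, was dim at 6.91, 7.07 and 7.46 against 6.74 ± 0.44. ACTN3, ACTN4 and FHL5 had no probe set under those symbols and were not analysed here.

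Among the intermediate filament genes, SYNM was lowest and VIM highest on Large White replicates 1 and 3. SYNM encodes synemin, which joins desmin filaments to the Z-disc and the membrane. It read 7.26, 11.49 and 10.54 on the Large White arrays, against 12.03 ± 0.95 (SD, n = 3) in Northeastern Indigenous boars, with replicate 1 lowest as for DES. VIM encodes vimentin, the intermediate filament of fibroblasts, endothelium, leukocytes and fat cells. It read 14.54, 12.48 and 14.26 against 12.36 ± 0.33, highest on the arrays where DES was lowest. The VIM difference was -1.40 ± 0.53 (SE; limma adjusted p = 0.246) and that of SYNM 2.27 ± 1.07 (adjusted p = 0.287). CRYAB, a chaperone that binds desmin, read 13.12, 13.31 and 13.42 against 13.58 ± 0.16. The linker gene DST read 10.68, 11.60 and 10.97 against 11.33 ± 0.04. The nuclear lamina genes LMNA and LMNB1 differed by -0.06 ± 0.27 and -0.80 ± 0.40 (SE). Of 20 further intermediate filament genes and partners, 13 were on the array and 7 were kept; 4 of these were brighter in Northeastern Indigenous boars, and the median difference was 0.25. Limma called 0 of them, with VIM alone at an unadjusted p under 0.05, against 18.8% of all probe sets tested.

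LIM protein genes were split. Besides FHL1 the list held 21 genes, of which 13 were on the array and kept, 4 of them also in the Z-disc list. Differences were positive for 7 and negative for 6, with a median of 0.36, or 0.19 as deposited. PDLIM5 and PDLIM3, Z-disc proteins that bind alpha-actinin, differed by 1.66 ± 0.97 and 1.92 ± 1.11 (SE). LMCD1 differed by 1.52 ± 0.64, NRAP, which is found where myofibrils end, by 1.84 ± 0.93 and LIMS2, of focal adhesions, by 0.36 ± 0.46. Limma called 0 of the 13 (smallest adjusted p = 0.248), and 1 higher and 1 lower had an unadjusted p under 0.05. These were LMCD1 and CSRP2, the latter named after its values were seen. Over all probe sets tested, 8.82% were higher and 9.97% lower at that threshold.

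The costamere couples the Z-disc to the membrane. Of 29 genes listed for it and the dystrophin complex, 9 were on the array and 8 were kept. Of these, 5 had a positive and 3 a negative difference, with a median of 0.36. Limma called 0, with 0 at an unadjusted p under 0.05, against 18.8% of all probe sets tested. SGCD, a sarcoglycan, read 9.36, 11.79 and 10.80 on the Large White arrays against 11.62 ± 0.30 (SD, n = 3). ITGB1BP2, a muscle partner of integrin, read 6.14, 11.08 and 10.62 against 10.58 ± 0.27. ITGB1, the integrin subunit present in most cell types, went the other way at 13.24, 11.98 and 13.19 against 12.01 ± 0.05. VCL, vinculin, read 11.05, 11.40 and 11.29 against 11.65 ± 0.22. SNTB1 and TLN1 differed by 0.33 ± 0.29 and -0.29 ± 0.25 (SE).

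Core genes of the thin and thick filaments were mostly low on Large White replicate 1. Of 28 listed, 23 were on the array and kept; 22 were higher in Northeastern Indigenous boars, with a median difference of 1.32, and limma called 0. The single lower one, TPM3, also had the single unadjusted p under 0.05 (-1.45 ± 0.41 SE, limma adjusted p = 0.224). Over all probe sets tested, 18.8% had an unadjusted p under 0.05. On Large White replicate 1 the 23 genes lay at a median of -3.77 from the Northeastern Indigenous mean. The 6 brightest were MYL1, TPM1, MYLPF, MYH2, CKM and TNNT3. MYL1, a fast light chain, lay at -0.60 there, MYLPF at -1.35, MYH2 at -1.89, TPM1 at -2.00, CKM at -2.44 and TNNT3 at -3.53. FHL1 lay at -0.94. As deposited, the values were -1.37 for MYL1, -1.99 for MYLPF, -2.42 for MYH2, -2.54 for TPM1, -2.89 for CKM, -3.81 for TNNT3 and -1.59 for FHL1. The order of these 7 genes was the same on both scales.

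**Figure D3:**
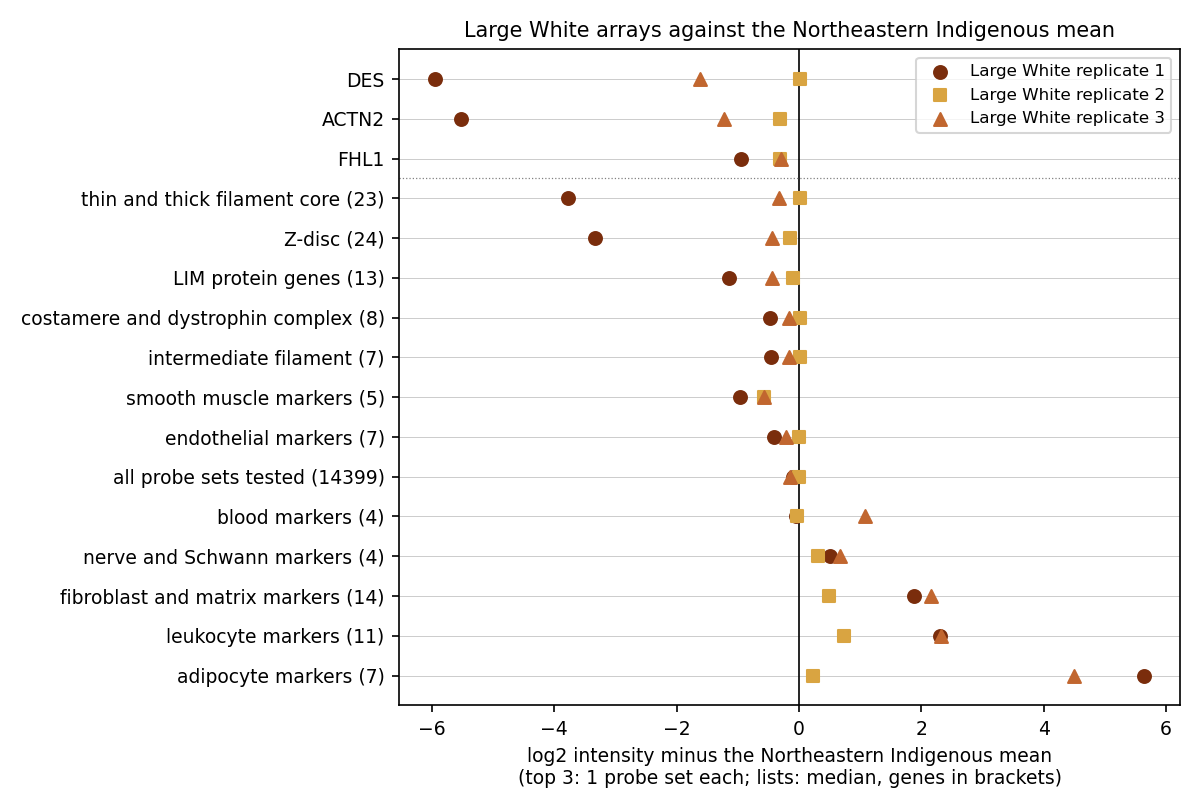
Normalized log2 intensity of each Large White array minus the mean of the 3 Northeastern Indigenous arrays (horizontal axis), for DES, ACTN2 and FHL1 and as the median over each gene list. Replicate 1 is at -5.95 for DES, -5.52 for ACTN2 and -0.94 for FHL1, and at 5.65 for adipocyte markers, while replicate 2 stays within 0.74 of 0 in every line.

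Large White replicate 1 was the lowest array for most muscle structure genes. Among 70 genes of the 5 muscle structure lists that were kept, this held for 51, against 31.1% of all probe sets tested. None of the 70 lay further below on that array than DES, 3 lay further below than ACTN2, and 45 lay further below than FHL1. The 21 of them with a Northeastern Indigenous mean of at least 14, a level chosen after seeing the data, had a median of -3.53 on Large White replicate 1. Of those, 19 lay further below than FHL1, both as normalized and as deposited. Among all 205 probe sets tested at that level, the median was -0.13, or -0.84 as deposited, and 58 lay further below than FHL1.

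**Figure D4:**
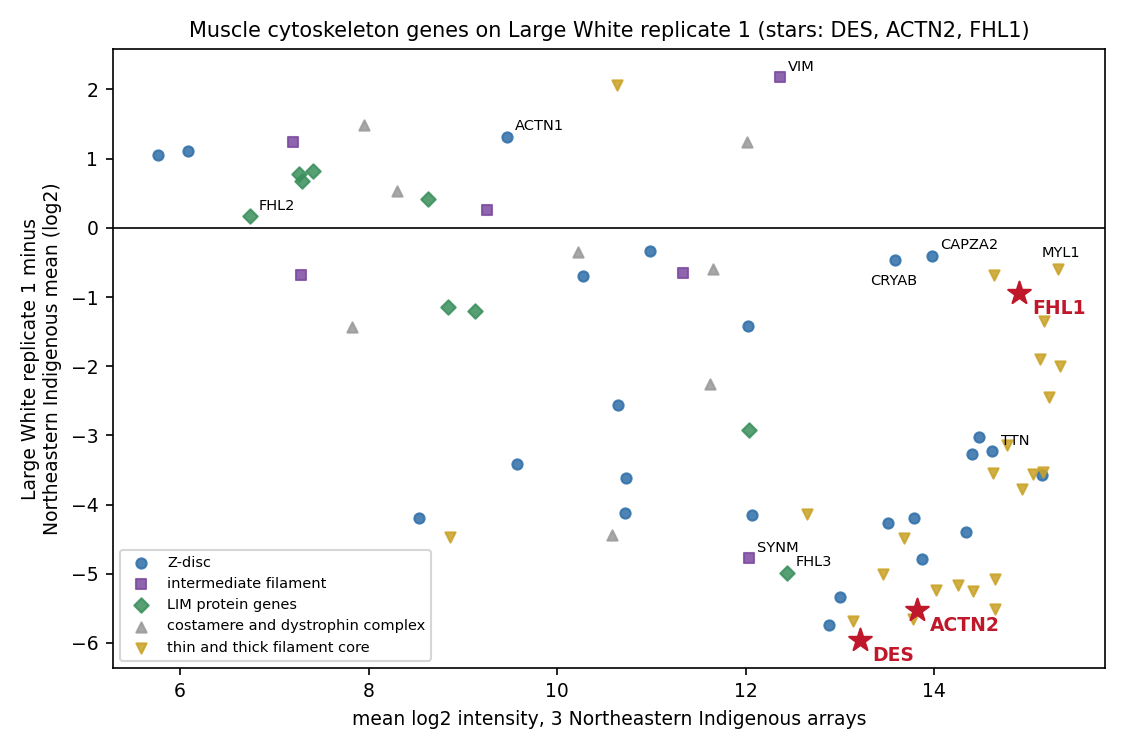
Normalized log2 intensity of Large White replicate 1 minus the Northeastern Indigenous mean (vertical axis) against that mean (horizontal axis) for 70 genes of the 5 muscle structure lists, with stars for DES, ACTN2 and FHL1. DES at -5.95 is the lowest point, ACTN2 at -5.52 lies among the lowest, and FHL1 lies at -0.94; VIM and ACTN1 lie above 0.

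Across the 6 arrays, DES and ACTN2 had profiles more like each other than like FHL1. Pearson's r was 0.996 between DES and ACTN2, 0.897 between DES and FHL1 and 0.902 between ACTN2 and FHL1. These coefficients are descriptions over 6 arrays that share Large White replicate 1 as an extreme point. The root mean square distance between mean-centred log2 profiles was 0.27 for DES and ACTN2, which made ACTN2 the fourth nearest of 5294 genes to DES. For DES and FHL1 it was 1.87, and FHL1 was in place 1132.

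By the same distance, the 5 nearest genes to each were found among 5292. DES was nearest to RYR1, the calcium release channel of muscle (0.23), MYOM1, an M-band protein (0.25), PLCD4, a phospholipase (0.27), CAMK2B, a calcium-dependent kinase (0.30), and ATP2A1, the calcium pump of fast fibres (0.32). ACTN2 was nearest to MYBPC1, a thick filament protein (0.14), HSPB8, a small heat shock protein (0.19), ASB11 (0.19), MSS51 (0.20) and PRKAA2, a catalytic subunit of AMP-activated kinase (0.20). On Large White replicate 1, PLCD4 and CAMK2B read 2.27 and 2.29, as dim as the dim probe set of DES, so the size of their difference and their nearness to DES are not firmly measured. The other 8 genes near DES and ACTN2 lay between -6.30 and -5.01 log2 units from the Northeastern Indigenous mean on that array. FHL1 was nearest to GPANK1 (0.10), VWF, a protein of endothelium (0.11), HNRNPDL, an RNA-binding protein (0.11), SELENOH, a selenoprotein (0.12), and NUP37, of the nuclear pore (0.13). None of these 5 is a sarcomere gene. Profiles that vary little lie close together by this measure, so small distances to FHL1 come more easily.

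**Figure D5:**
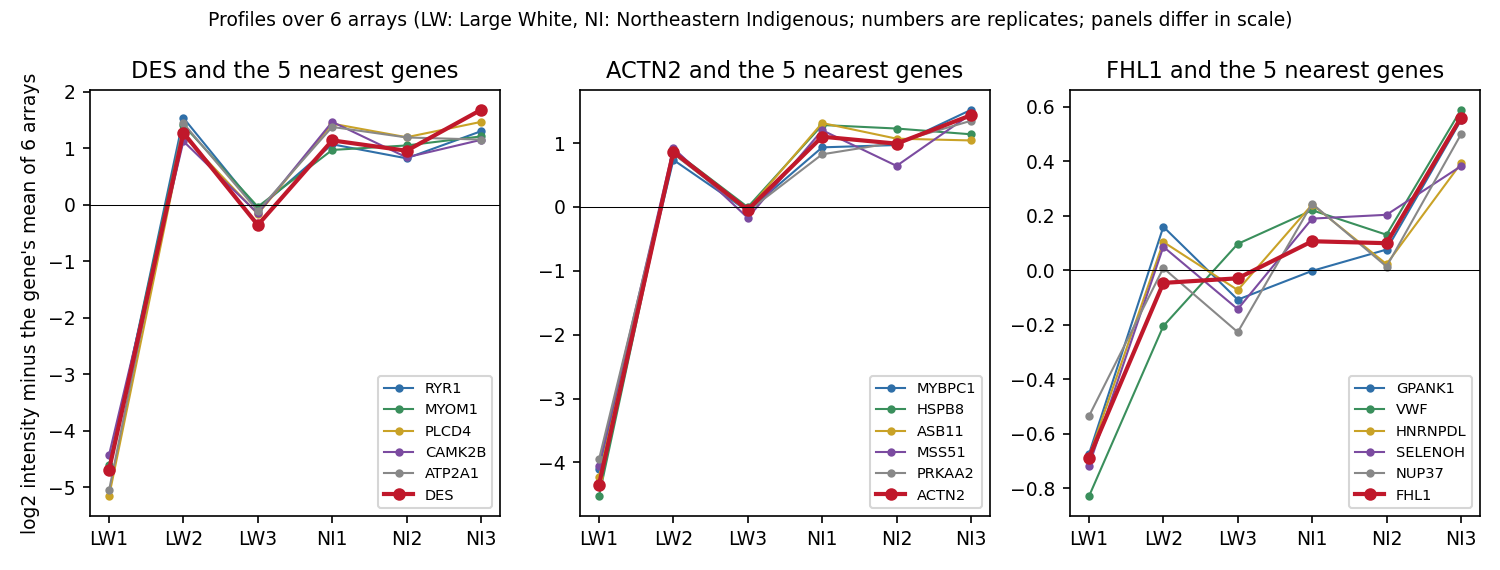
Normalized log2 intensity minus each gene's own mean over 6 arrays (vertical axis) by array (horizontal axis; LW Large White, NI Northeastern Indigenous, with replicate numbers), for DES, ACTN2 and FHL1 (thick red) and the 5 genes nearest to each. All genes in the DES and ACTN2 panels are lowest on LW1, and the FHL1 panel spans from -0.83 to 0.59 with NI3 highest for FHL1.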

How the data were processed

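Each array came as the authors' deposited linear intensities, 1 for each probe set; the software that made it is not given in the sources used here. The mean without the lowest and highest 2% was 500.1 to 500.2 on every array, so the arrays share a scale. The 124 Affymetrix controls were left out, intensities were taken as log2 and quantile normalized, and the 14399 probe sets whose mean log2 intensity reached the 40th percentile were tested. Breeds were compared with limma 3.58.1 in R 4.3.3 (lmFit, eBayes with an intensity trend, two-sided, Benjamini-Hochberg over 14399). A gene was represented by its brightest probe set. The fit was tested on simulated data in which both breeds had the same spread, unlike DES and ACTN2 here. It called 3.36% of simulated differences of 1 log2 unit, 42.2% of those of 2 and 68.5% of those of 3. These are averages over probe sets drawn from all those tested. DES and ACTN2 were at the 99.7th and 99.4th percentiles of the Large White SD, so the rates do not describe them. A difference that was not called may thus still be real. Single values and ratios also had exact permutation tests. The members and gene lists were chosen with earlier results of these data known. The text names the 5 genes nearest to each member, the relatives of the members and the brightest 6 genes of each muscle structure list. Replicate numbers were not used as pairs in the main fit. Arrays of the same number correlated at -0.02, -0.16 and -0.11 in their deviations from the breed means. Arrays of different numbers correlated at -0.09 to 0.13, and 3 arrays per breed are too few to settle pairing. Symbols follow the platform annotation, and no build is named, so no coordinates are given. Alternatives were other scalings, filters, an offset, variance priors, the replicate block and arrays left out.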

Additional observations from a re-analysis of the deposited data

How the results depend on the processing

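Without Large White replicates 1 and 3 together the DES difference shrank to -0.025, where ACTN2 was at 0.33 and FHL1 at 0.32. That DES value is too small to read as a reversal, given an SD of 0.38 over the Northeastern Indigenous arrays. The cause was not tested. The count of 0 called probe sets became 1 with arrays centred on their medians. Leaving out 1 array gave counts from 0 to 4425 (4425 without Large White replicate 2), DES differences from 0.82 to 3.75, ACTN2 from 0.80 to 3.32 and FHL1 from 0.30 to 0.63. The within-array differences ranged from 0.03 to 0.43 for DES to ACTN2, 0.52 to 3.15 for DES to FHL1 and 0.49 to 2.73 for ACTN2 to FHL1. With the replicate block limma called 0 probe sets, and the adjusted p was 0.343 for DES, 0.338 for ACTN2 and 0.336 for FHL1, so the block changed no call. The other scalings, filters, the offset of 16 and the variance priors kept the direction of DES, ACTN2 and FHL1 and passed none of them. The median of all probe sets moved from 0.10 to 0.14 with median centring and to -0.003 as deposited. With 3 arrays per breed an exact permutation test cannot give a p under 0.1. No detection calls were used, so the dim DES probe set cannot be set against background.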
